A study of Mus musculus with 6 samples.

Results

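The genes described here encode the proteins that take up glucose, split it to pyruvate, export lactate, feed pyruvate into the mitochondrion and run the pentose phosphate pathway. They were chosen by gene symbol, 37 symbols in all, and the symbols matched 38 of the 21936 genes listed, since Aldoa stands on 2 rows. Glycolysis turns 1 glucose into pyruvate in the cytosol and yields ATP without oxygen. Lactate dehydrogenase then reduces pyruvate and restores the NAD+ that glycolysis needs, while the pyruvate dehydrogenase complex, which its kinases switch off, converts pyruvate to acetyl-CoA for the tricarboxylic acid cycle. The pentose phosphate pathway branches off at glucose 6-phosphate and makes NADPH and ribose 5-phosphate, and macrophages are known to raise glycolysis when they are activated.

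RNA was sequenced from sorted macrophages of mice kept on a high-fat diet for 4 months. One group, labelled WT, came from ALKBH5flox/flox, APOE-/- mice (3 libraries), and the other, labelled CKO, from ALKBH5flox/flox, Lyz2-Cre, APOE-/- mice (3 libraries). Both groups therefore carried the floxed Alkbh5 allele and lacked Apoe by label, and they differed by Lyz2-Cre, a recombinase that is active in myeloid cells in general and not in macrophages alone. The design asks what changes when ALKBH5, a demethylase that removes N6-methyladenosine from RNA, is deleted in these cells. The labels give neither the age of the mice nor the tissue of origin, and whether each library is a separate animal is not stated. The p-values therefore reflect the spread among the sequenced libraries alone, and that spread may be technical.

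The labels and the data disagreed on both targeted genes. Alkbh5 stood at 3.77, 3.95 and 3.88 FPKM (fragments scaled to gene length and sequencing depth) in WT-labelled libraries and at 9.15, 8.61 and 8.5 in CKO-labelled ones, which is higher where the gene should be deleted (log2 difference 1.00, SE 0.05, adjusted p = 4.78e-09, limma). Apoe fell from 1635 ± 29.3 FPKM in WT-labelled libraries to 95.02 ± 4.69 in CKO-labelled ones (SD, n = 3), although both genotypes are labelled as lacking it. Values summed over a whole gene cannot show whether an exon is missing, so neither check settles the genotype, and every direction below is between libraries by their label. The libraries held between 15422154 and 18418903 reads, recovered from the deposited values, and 3 reads on a gene of 1 kb corresponded to 0.163 to 0.195 FPKM. All 8 macrophage markers reached a group mean of 1 FPKM, 5 rising (such as Adgre1, from 222 to 778 FPKM, and Cd14, from 189 to 693) and 3 falling (Lyz2, Cd68 and Mertk). Their summed level was 16351 to 18265 in WT-labelled libraries and 9217 to 9644 in CKO-labelled ones. Most of that sum was Lyz2 (15116 to 6556), the gene named in the Lyz2-Cre label. The sum may therefore follow the labelled genotype itself, which was not tested. Of 11 neutrophil markers 9 reached 1 FPKM and 8 fell, their sum going from between 655 and 941 FPKM to between 102 and 115, and Retnlg was listed at 0 in all 3 libraries labelled CKO. Of 5 endothelial markers 3 reached 1 FPKM, of which Vwf (19.8 to 2.78 FPKM) and Kdr fell and Pecam1 rose (0.88 to 1.47), with sums of 26.4 to 27.1 FPKM in WT-labelled libraries and 7.77 to 8.99 in CKO-labelled ones. Msln (mesothelium), Ckm and Myh7 (muscle), Cidec and Plin1 (adipocytes) and Alb and Ttr (hepatocytes) were at 0 throughout. The other markers of these lists, and all dendritic cell and erythroid ones, stayed below a group mean of 1 FPKM. T and NK cell markers summed to 4.94 to 5.05 FPKM in WT-labelled libraries and 0.953 to 1.06 in CKO-labelled ones. Of these Cd4 was called lower (3.94 to 0.483). B and plasma cell markers summed to 3.97 to 5.97 and 1.63 to 2.31 FPKM, with Jchain and Cd79b called lower. These marker levels moved with the same contrast as every gene below, and their part in the results was not tested. In bulk RNA, fewer cells of a type and less RNA per cell cannot be told apart.

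Most members rose. Of the 37 rows with at least 1 FPKM in 3 or more libraries, 22 were higher in CKO-labelled libraries, 10 were lower and 5 were not called (limma, Benjamini-Hochberg adjusted p under 0.05 over all 9953 genes tested). In the same comparison 81.1% of all genes tested were called, 30.5% as higher and 50.5% as lower, so a call alone sets few genes apart here; the members' shares were 59.5% higher and 27.0% lower. A called rise of at least 1 on the log2 scale was reached by 17 members, against 8.35% of all genes tested. A call of that size in either direction was reached by 20 members, against 18.4%. The 3 that fell so far were Eno2, Ldhb and Pdk2. The scale adds 1 FPKM before the logarithm, which understates changes of low genes. Pfkfb2, at -0.76, was at -1.24 with a pseudocount of 0.1 FPKM instead. The median log2 difference was 0.76 over the members and -0.14 over all genes tested. Members were chosen with earlier results of these data known, so their shares and median beside all genes are a description and not a test. Median-of-ratios scaling, which sets the typical gene to no change, moved the median of all genes by 0.16 and the background to 40.8% higher and 38.9% lower, and quantile normalization to 35.9% and 43.4%; with them 27 and 24 members were higher, and 7 and 9 lower. No overlap between the groups' libraries was seen for 24 members above and 10 below, against 31.2% and 51.3% of all genes tested (82.5% in either direction). Replicates lay close together, with a median coefficient of variation over the members of 3.68% in WT-labelled libraries and 2.22% in CKO-labelled ones. The widest was Pfkfb2 in the latter, at 22.3%. The second Aldoa row, a neighbouring gene model on the same strand at 0.446 and 0.199 FPKM, was below the filter and was not tested, and Pdk2 passed it through the libraries labelled WT alone.

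**Figure D1:**
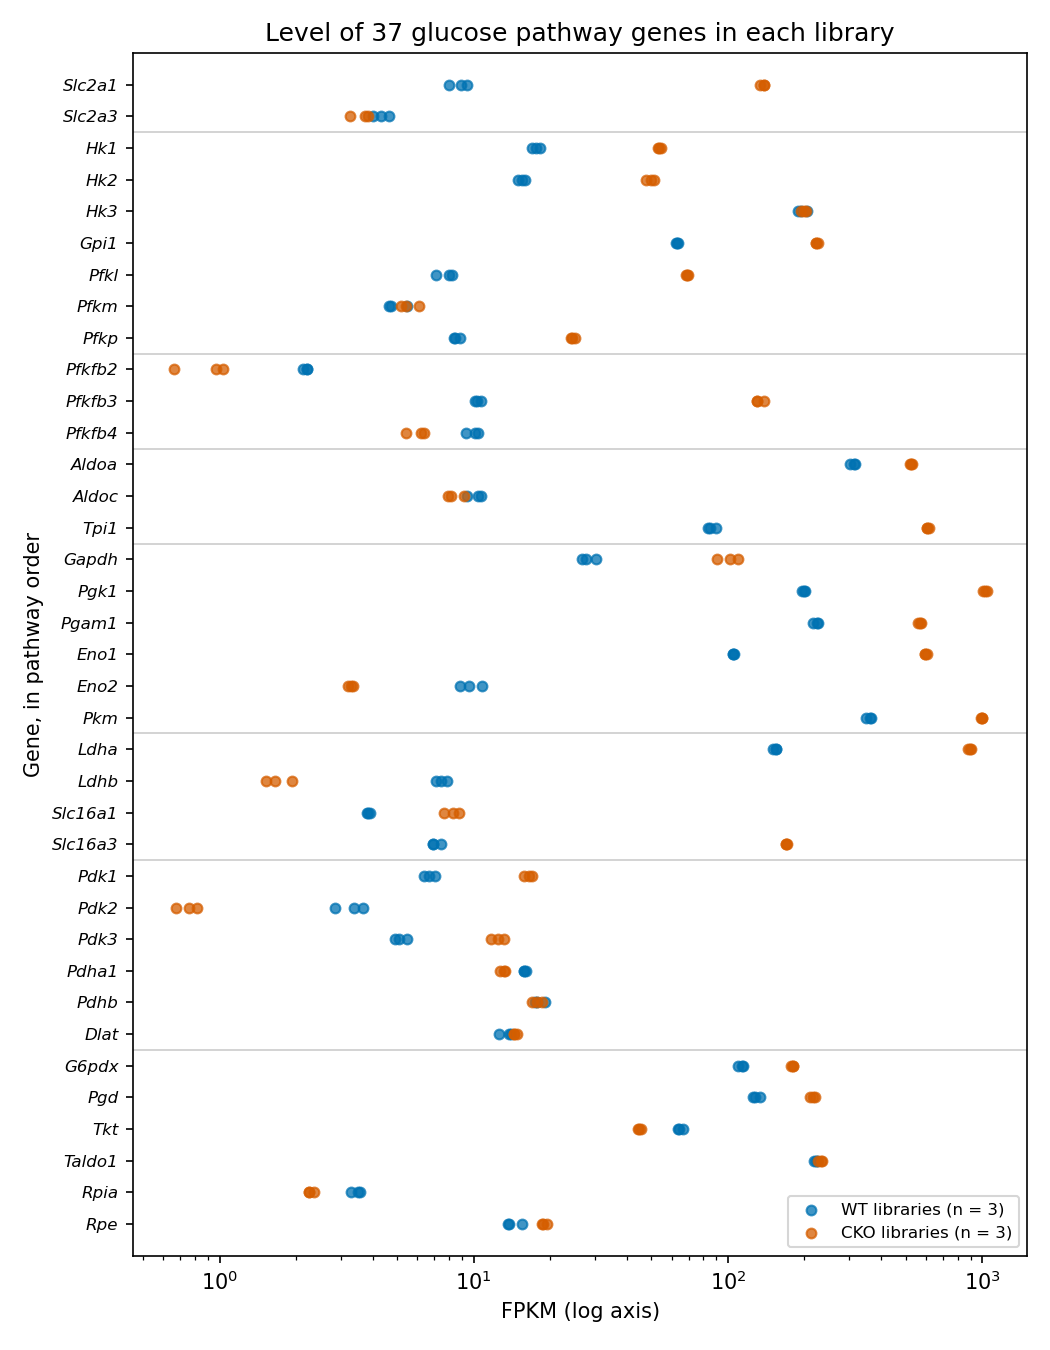
Level of each tested member (rows, in pathway order, grey lines between roles) in FPKM on a log axis. Each point is 1 library, blue for the 3 labelled WT and orange for the 3 labelled CKO. The colours lie far apart for Slc16a3, Slc2a1 and Pfkfb3, overlap for Hk3, Pfkm and Pdhb, and nearly touch for Taldo1.

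The 5 members printed first below are among those that rose by more than 2 on the log2 scale. They represent export, uptake, regulation, lactate formation and an ATP-forming step. Pfkl (3.00), Tpi1 (2.82) and Eno1 (2.51) also rose by more than 2 and are not printed. Ldhb, which fell while its paralog Ldha rose, and Hk3, which was not called while Hk1 and Hk2 rose, follow for contrast. Each sequence is the 250 bases before the transcription start of the RefSeq gene (GRCm38.p6), 5′ to 3′ on the gene's own strand, and capitals mark ACGTG or GCGTG, the core letters of hypoxia response elements, on either strand.
Slc16a3: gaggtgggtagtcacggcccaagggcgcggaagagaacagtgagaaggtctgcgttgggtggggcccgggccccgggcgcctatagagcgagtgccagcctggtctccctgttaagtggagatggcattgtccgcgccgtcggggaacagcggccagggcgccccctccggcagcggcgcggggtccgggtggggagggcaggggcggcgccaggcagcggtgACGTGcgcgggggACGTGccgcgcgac
Slc2a1: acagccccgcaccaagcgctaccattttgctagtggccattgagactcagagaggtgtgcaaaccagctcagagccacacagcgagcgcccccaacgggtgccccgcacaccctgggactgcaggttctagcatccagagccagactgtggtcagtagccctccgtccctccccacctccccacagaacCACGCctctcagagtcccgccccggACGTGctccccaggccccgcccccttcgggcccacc
Pfkfb3: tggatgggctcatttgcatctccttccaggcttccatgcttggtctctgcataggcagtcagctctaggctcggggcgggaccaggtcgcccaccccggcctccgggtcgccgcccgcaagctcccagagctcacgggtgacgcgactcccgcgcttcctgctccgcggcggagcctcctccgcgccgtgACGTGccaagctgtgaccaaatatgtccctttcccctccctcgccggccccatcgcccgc
Ldha: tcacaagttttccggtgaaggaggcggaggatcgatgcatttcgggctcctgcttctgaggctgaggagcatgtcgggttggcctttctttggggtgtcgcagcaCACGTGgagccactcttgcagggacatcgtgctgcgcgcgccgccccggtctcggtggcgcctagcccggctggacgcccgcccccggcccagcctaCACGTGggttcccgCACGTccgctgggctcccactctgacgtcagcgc
Pgk1: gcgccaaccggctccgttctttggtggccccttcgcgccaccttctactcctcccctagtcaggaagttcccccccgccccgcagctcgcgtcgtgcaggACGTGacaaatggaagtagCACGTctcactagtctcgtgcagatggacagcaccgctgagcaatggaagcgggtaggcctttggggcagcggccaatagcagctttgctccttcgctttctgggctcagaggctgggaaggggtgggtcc
Ldhb: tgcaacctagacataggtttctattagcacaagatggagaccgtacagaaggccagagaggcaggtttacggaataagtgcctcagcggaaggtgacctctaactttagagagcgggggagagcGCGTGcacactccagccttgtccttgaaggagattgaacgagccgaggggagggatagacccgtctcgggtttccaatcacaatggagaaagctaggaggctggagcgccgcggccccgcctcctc
Hk3: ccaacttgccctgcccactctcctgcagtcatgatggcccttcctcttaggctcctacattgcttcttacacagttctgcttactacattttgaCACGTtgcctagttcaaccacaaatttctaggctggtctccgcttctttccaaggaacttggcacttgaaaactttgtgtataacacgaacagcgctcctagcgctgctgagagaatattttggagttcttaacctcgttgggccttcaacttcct

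These windows lie at chr11:120948817-120949066 on the plus strand (Slc16a3), chr4:119108495-119108744 on the plus strand (Slc2a1), chr2:11553930-11554179 on the minus strand (Pfkfb3), chr7:46845554-46845803 on the plus strand (Ldha), chrX:106186850-106187099 on the plus strand (Pgk1), chr6:142507958-142508207 on the minus strand (Ldhb) and chr13:55021386-55021635 on the minus strand (Hk3). The RefSeq start used for Ldha is 4329 bases from the 5′ end of the deposited gene model and that of Slc16a3 is 587 bases from it, so these windows lie inside the deposited genes. Ldha holds 5 matches to ACGTG, counted on both strands, of which 4 come from 2 copies of the palindrome CACGTG, the core of the E-box that MYC and MLX-type factors bind. Slc16a3 and Pgk1 hold 2 matches to ACGTG each. In Slc2a1 1 ACGTG and 1 GCGTG were found, and Ldhb has only a single GCGTG. Hk3, which was not called, also holds 1 ACGTG. Pfkl, Tpi1 and Eno1, not printed, hold no ACGTG in their windows of 300 bases. GCGTG has 1 match in Pfkl, 2 in Eno1 and none in Tpi1. Pdk2, which fell and is not printed, holds 2 matches to ACGTG, both from 1 CACGTG.

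Over the 36 members with a RefSeq window of 300 bases (250 before and 50 after the start; Slc2a3 had none), ACGTG on either strand was present in 16, or 44.4%, against 27.0% of the 8070 matched genes tested and 19.6% of all 32851 windows. It was present in 9 of the 17 members that rose by at least 1 and in 7 of the other 19. GCGTG was present in 21 members, or 58.3%, against 52.9% of the genes tested and 32.4% of all windows, and its split ran the other way, with 9 of the 17 and 12 of the other 19. Either motif was present in 76.5% of the 17 and 78.9% of the other 19. The E-box CACGTG, which contains ACGTG, was in 4 members (11.1%, against 10.8% and 7.15%). GGGCGG, the core letters of an SP1 site, was in 25 members (69.4%, against 66.0% and 35.7%), and TGACNNNGC, the antioxidant response element that NRF2 binds, in 3 (8.33%, against 15.3% and 12.4%). The antioxidant element was found in Slc16a1, Pdhb and G6pdx. These are matches of letters, described and not tested.

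Glucose uptake was carried by another mixture of transporters in the 2 groups. Slc2a1 (chr4:119108711-119137983) encodes GLUT1, the basal glucose transporter of most cells. It was measured at 9.40, 8.95 and 7.995 FPKM in WT-labelled libraries and at 138, 139 and 133 in CKO-labelled ones. Every library labelled CKO stood far above every library labelled WT, a 15.6-fold difference of the means (log2 difference 3.82, SE 0.05, adjusted p = 7.34e-14, limma). Slc2a3, which encodes the high-affinity neuronal transporter GLUT3, was at 4.63, 4.32 and 4.02 FPKM against 3.84, 3.27 and 3.74. It was called slightly lower (log2 difference -0.21, adjusted p = 0.0148, limma), a call lost after either rescaling (log2 difference -0.06 and -0.07) and without WT replicate 1 or CKO replicate 2 (-0.16 and -0.15). Slc2a1 thus made up 67.0% ± 0.457 of the 2 transporters' summed FPKM in WT-labelled libraries and 97.4% ± 0.243 in CKO-labelled ones (SD, n = 3).

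Of the 3 hexokinases, which trap glucose as glucose 6-phosphate, the 2 less abundant rose and the main one did not. Hk1, the widely expressed mitochondria-bound form, went from 18.3, 17.6 and 17.0 FPKM to 53.4, 54.5 and 53.3. Hk2, the inducible form, went from 15.5, 15.9 and 15.0 FPKM to 49.9, 51.2 and 47.6. The log2 differences were 1.56 (SE 0.04, adjusted p = 7.29e-12, limma) for Hk1 and 1.62 (SE 0.04, adjusted p = 1.05e-11, limma) for Hk2, with no overlap. Hk3, the form typical of myeloid cells, stood at 205, 188 and 194 FPKM in WT-labelled libraries and at 193, 200 and 204 in CKO-labelled ones. These ranges overlap, and the difference of 0.02 had a 95% interval from -0.05 to 0.10; after median-of-ratios scaling Hk3 was called higher by 0.21. The share of Hk3 in summed hexokinase FPKM went from 85.5% ± 0.548 to 65.8% ± 0.916. Summed hexokinase thereby rose only 1.32-fold, from 229 ± 8.65 to 302 ± 5.13 FPKM, the smallest ratio of the 10 steps from hexokinase to pyruvate kinase.

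Further down the upper pathway each step was higher in CKO-labelled libraries. Gpi1, which interconverts glucose 6-phosphate and fructose 6-phosphate, rose 3.55-fold, from 63.5, 63.3 and 62.2 FPKM to 222, 227 and 222. Phosphofructokinase 1, the committing enzyme, has 3 subunit genes that differed widely. Pfkl, the liver-type subunit, went from 8.23, 8.01 and 7.09 FPKM to 68.6, 69.01 and 69.3 (log2 difference 3.00, SE 0.05, adjusted p = 3.73e-13, limma). Pfkp, the platelet type, went from 8.86, 8.34 and 8.46 FPKM to 25.0, 24.4 and 24.0 (log2 difference 1.42). Pfkm, the muscle type, was at 5.45, 4.64 and 4.74 FPKM against 6.10, 5.40 and 5.18, with overlap and no call (log2 difference 0.14, adjusted p = 0.0811, limma), though it was called higher after median-of-ratios scaling (0.30), quantile normalization (0.26) and without WT replicate 1 (0.20). In the libraries labelled WT no single subunit exceeded 40.2% of the summed FPKM on average, whereas Pfkl made up 69.7% ± 0.814 in CKO-labelled ones. These shares depend on the listed lengths that FPKM divides by, 6675 bases for Pfkl, 3340 for Pfkm and 13401 for Pfkp. Before that division, the libraries labelled WT held 2760 recovered reads on Pfkl, 877 on Pfkm and 6081 on Pfkp. Those labelled CKO held 23187, 935 and 16531.

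Among the bifunctional enzymes that set the level of the allosteric activator of phosphofructokinase 1, 1 gene rose and 2 fell. Pfkfb3 (chr2:11471433-11554077), whose product has a strong kinase bias and drives glycolysis, was at 10.7, 10.3 and 10.1 FPKM against 139, 130 and 130 (log2 difference 3.55, SE 0.04, adjusted p = 1.74e-14, limma). Pfkfb4 was at 10.4, 10.1 and 9.32 FPKM against 6.20, 6.38 and 5.42 (log2 difference -0.64, adjusted p = 2.08e-06, limma). Pfkfb2, the heart-type form, was at 2.22, 2.21 and 2.13 FPKM against 0.660, 1.03 and 0.968 (log2 difference -0.76, adjusted p = 3.65e-06, limma). Pfkfb3 and Pfkfb4 were thus at nearly the same level in WT-labelled libraries, with a ratio of 1.05 ± 0.0338, and 22.2-fold apart in CKO-labelled ones (SD 1.82, n = 3).

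Aldoa, the main aldolase, rose less than its neighbours in the pathway, from 315, 314 and 301 FPKM to 519, 524 and 532 (log2 difference 0.76, SE 0.03, adjusted p = 2.68e-10, limma). Aldoc, the brain-type aldolase, was at 10.4, 10.7 and 9.44 FPKM against 9.16, 8.15 and 7.94; its call as lower (log2 difference -0.25) was lost after median-of-ratios scaling (-0.08). Tpi1, triose phosphate isomerase, went from 84.9, 89.4 and 83.3 FPKM to 609, 605 and 619, a 7.11-fold rise and the steepest of the 10 glycolysis steps (log2 difference 2.82, SE 0.03, adjusted p = 2.01e-14, limma). Its exons overlap those of Spsb2 on the opposite strand, as those of 13 member rows overlap some opposite-strand gene in GENCODE M21. The kit keeps strand, but whether the counting used it is not given in the sources used here.

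In the lower pathway, which yields ATP, 5 of 6 genes rose and Eno2 fell. Pgk1 (chrX:106187100-106203699), phosphoglycerate kinase, the first ATP-forming enzyme, had the highest FPKM of the members in CKO-labelled libraries. It was at 200, 199 and 195 FPKM in WT-labelled libraries and 1008, 1023 and 1043 in CKO-labelled ones (log2 difference 2.36, SE 0.03, adjusted p = 1.74e-14, limma). Pkm, pyruvate kinase, the member with the highest FPKM in WT-labelled libraries, went from 364, 350 and 361 FPKM to 996, 988 and 995 (log2 difference 1.47). The order of Pgk1 and Pkm depends on their listed lengths, 2244 and 5001 bases. In recovered reads Pkm stayed ahead in CKO-labelled libraries, at 250159 against 115848. Pgam1, phosphoglycerate mutase, went from 226, 224 and 215 FPKM to 562, 571 and 576 (log2 difference 1.36). All 3 genes were separated between the groups by far more than the spread of the libraries. Gapdh, the dehydrogenase often used as a reference transcript, went from 30.2, 26.7 and 27.7 FPKM to 90.5, 102 and 110, a 3.57-fold rise (log2 difference 1.80, SE 0.06, adjusted p = 2.82e-10, limma). Its recorded level was the lowest of the lower pathway's steps in both groups. Gapdh shares 24.7% of its 50-base windows, taken over all its annotated transcripts, with transcripts of 218 other genes, 213 of them pseudogenes. Pgk1 shares 53.9%, Pgam1 36.2%, Eno1 25.99%, Pkm 25.8%, Ldhb 20.99%, Pfkfb2 15.9%, Pdhb 10.9% and Ldha 9.03% of theirs. Levels and ratios between these genes are uncertain where reads that fit several places were dropped or split. That includes the ratios and shares of the enolases and lactate dehydrogenases below.

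The enolases moved in opposite directions. Eno1, the ubiquitous form, was at 106, 104 and 104 FPKM against 605, 598 and 597 (log2 difference 2.51, SE 0.02, adjusted p = 9.35e-15, limma). Eno2, the neuronal form, was at 10.7, 8.84 and 9.58 FPKM against 3.27, 3.20 and 3.34 (log2 difference -1.32, SE 0.06, adjusted p = 4.35e-09, limma). The ratio of Eno1 to Eno2 was 10.9 ± 0.974 in WT-labelled libraries and 184 ± 4.36 in CKO-labelled ones.

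The same split was seen at lactate dehydrogenase, whose subunits combine into tetramers. Ldha (chr7:46841475-46855627), the muscle-type subunit that favours lactate formation, was at 155, 154 and 150 FPKM in WT-labelled libraries and at 896, 878 and 903 in CKO-labelled ones (log2 difference 2.53, SE 0.03, adjusted p = 1.14e-14, limma). Ldhb (chr6:142490249-142507957), the heart-type subunit that favours lactate use, was at 7.85, 7.42 and 7.07 FPKM against 1.52, 1.65 and 1.93 (log2 difference -1.65, SE 0.07, adjusted p = 8.70e-10, limma). The libraries of the groups did not overlap for either gene. The ratio of Ldha to Ldhb was 20.6 ± 0.774 in WT-labelled libraries and 529 ± 60.2 in CKO-labelled ones, the largest shift of the 8 paralog ratios computed. The lowest library held 40 reads on Ldhb, so its level rests on few reads.

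Lactate leaves the cell through monocarboxylate transporters. Slc16a3 (chr11:120948480-120960868), the gene of the low-affinity exporter MCT4, went from 7.44, 6.94 and 6.90 FPKM to 170, 169 and 169 (log2 difference 4.40, SE 0.04, adjusted p = 2.66e-15, limma). This 23.9-fold difference of the means was the largest among the members. Slc16a1, the gene of MCT1, which moves lactate either way, went from 3.91, 3.85 and 3.80 FPKM to 8.78, 8.28 and 7.64 (log2 difference 0.93, SE 0.06, adjusted p = 2.92e-08, limma). Both rose, but Slc16a3 went from 64.8% ± 0.671 to 95.4% ± 0.288 of their sum.

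**Figure D2:**
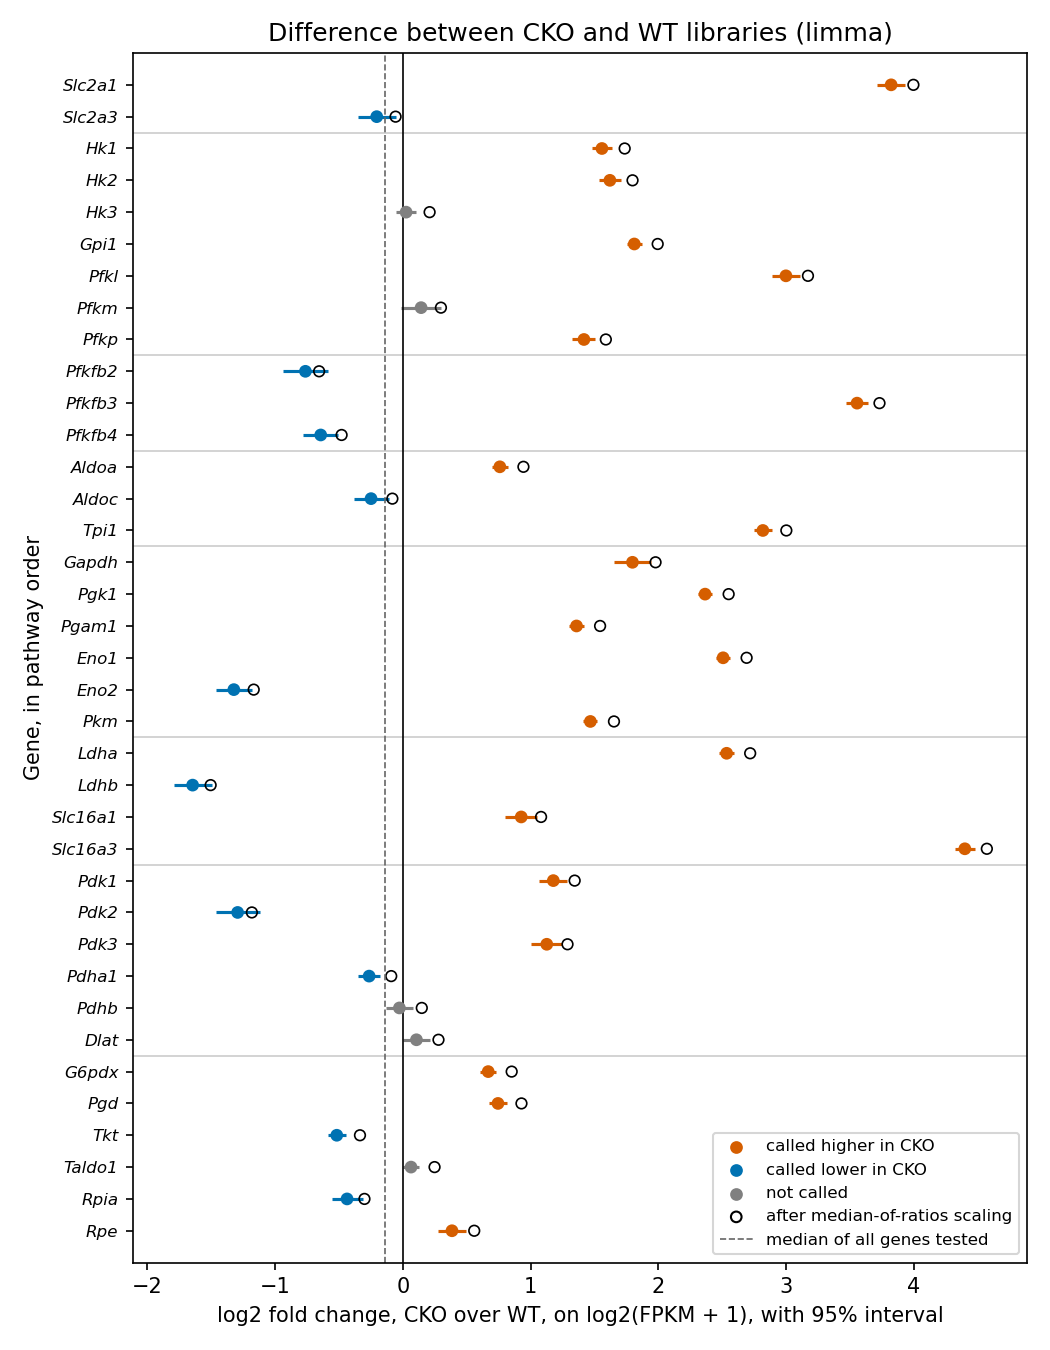
log2 difference between the libraries labelled CKO and WT for each tested member, with its 95% interval (filled points), and the same after median-of-ratios scaling (open points); the dashed line is the median of all genes tested, -0.14. Orange points (called higher) mark 12 of the 16 glycolysis rows and 3 of the 4 lactate rows, Ldhb lies farthest left at -1.65, and the pyruvate dehydrogenase subunits and Taldo1 lie near 0.

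Pyruvate dehydrogenase itself differed little while its kinases shifted. Pdk1, a kinase known as a target of hypoxia signalling, went from 6.37, 7.06 and 6.67 FPKM to 17.0, 16.4 and 15.8 (log2 difference 1.18, adjusted p = 1.05e-09, limma). Pdk3 went from 4.92, 5.44 and 5.09 FPKM to 12.4, 11.7 and 13.1 (log2 difference 1.13, adjusted p = 4.07e-09, limma). Pdk2 went the other way, from 3.38, 3.66 and 2.85 FPKM to 0.812, 0.759 and 0.675 (log2 difference -1.29, adjusted p = 2.71e-08, limma). The mean of Pdk2 fell 4.41-fold and that of Ldhb 4.37-fold, though the log2 scale with 1 FPKM added sets Ldhb lower, at -1.65. Pdk2 thus made up 21.7% ± 1.96 of the kinases' sum in WT-labelled libraries and 2.53% ± 0.217 in CKO-labelled ones, and the sum rose 1.95-fold. The lowest library held 37 reads on Pdk2, which passed the filter through the libraries labelled WT alone. A fall was thus the direction that the filter favoured for this gene.

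The 3 subunit genes of the complex that were measured stayed within narrow limits. Pdha1, the alpha subunit of its first enzyme, was at 16.1, 15.8 and 15.7 FPKM against 12.6, 13.1 and 13.3; it was called lower (log2 difference -0.26, adjusted p = 7.25e-05, limma), a call lost after median-of-ratios scaling (-0.09). Pdhb, the beta subunit, was at 17.8, 17.4 and 19.1 FPKM against 16.9, 18.6 and 17.7, with overlap and no call (-0.03, 95% interval -0.13 to 0.08); after median-of-ratios scaling it was called higher by 0.15. Dlat, the acetyltransferase core, was at 12.6, 13.7 and 14.04 FPKM against 14.4, 14.4 and 14.8, higher without overlap but not called (0.11, adjusted p = 0.0558, limma); it was called higher after median-of-ratios scaling (0.28), quantile normalization (0.15) and without WT replicate 3 (0.14). Their sum was 47.4 ± 1.32 FPKM in WT-labelled libraries and 45.3 ± 1.19 in CKO-labelled ones, a ratio of 0.956 that becomes 1.09 after median-of-ratios scaling.

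In the pentose phosphate pathway the oxidative, NADPH-forming arm rose, while the sum of the carbon-shuffling arm overlapped between the groups, with a ratio of 0.979 that becomes 1.11 after median-of-ratios scaling. G6pdx, glucose-6-phosphate dehydrogenase, which commits glucose to the pathway, went from 115, 110 and 113 FPKM to 177, 181 and 180 (log2 difference 0.67, SE 0.03, adjusted p = 1.17e-09, limma). Pgd, the second NADPH-forming enzyme, went from 133, 125 and 127 FPKM to 211, 216 and 220 (log2 difference 0.74, SE 0.03, adjusted p = 1.44e-09, limma). Both rises are under 1 on the log2 scale, below those of most glycolysis members. Tkt, transketolase, which passes carbon back towards glycolysis, fell from 66.3, 64.4 and 63.3 FPKM to 44.4, 44.5 and 45.7 (log2 difference -0.52, SE 0.03, adjusted p = 3.28e-08, limma). Taldo1, transaldolase, was at 224, 217 and 222 FPKM against 226, 233 and 235, above without overlap but not called (0.06, adjusted p = 0.0511, limma); the value is 0.25 and called after median-of-ratios scaling, 0.08 and called without CKO replicate 1, and -0.01 after quantile normalization. Rpia, which isomerizes ribose 5-phosphate, fell from 3.56, 3.50 and 3.30 FPKM to 2.25, 2.36 and 2.25 (-0.44), while Rpe, the epimerase beside it, rose from 13.8, 15.4 and 13.6 to 18.8, 19.4 and 18.6 (0.38).

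Summed over genes, 16 of 18 steps were higher in all 3 libraries labelled CKO than in any labelled WT, the pyruvate dehydrogenase complex was lower, and the non-oxidative pentose phosphate arm overlapped at 303 ± 3.65 against 297 ± 5.16 FPKM. Among single genes tested, 31.2% were above without overlap and 82.5% were without overlap in either direction. After median-of-ratios scaling all 18 sums were free of overlap, and those of the pyruvate dehydrogenase complex and the non-oxidative arm were higher in CKO-labelled libraries. With 3 libraries against 3, the exact two-sided permutation test cannot go below p = 0.1, which these 17 steps reach (0.106 after Benjamini-Hochberg adjustment over the 18). The ratios of the means ran from 1.32 for hexokinase and 1.67 for aldolase, through 2.57 for phosphoglycerate mutase, 2.77 for pyruvate kinase and 3.57 for glyceraldehyde 3-phosphate dehydrogenase, to 4.66 for phosphofructokinase 1, 5.17 for phosphoglycerate kinase, 5.27 for enolase and 7.11 for triose phosphate isomerase. Uptake (10.7) and lactate transport (16.2), the steps at the cell surface, had the largest ratios. The 10 steps from hexokinase to pyruvate kinase together went from 1640 ± 28.6 to 5061 ± 44.7 FPKM, or from 0.579% to 1.74% of all summed FPKM. The pentose phosphate genes went from 545 ± 10.4 to 692 ± 11.6 FPKM. The ratio of the glycolysis steps to the pentose phosphate genes was 3.01 ± 0.0380 in WT-labelled libraries and 7.31 ± 0.0706 in CKO-labelled ones, without overlap (exact two-sided permutation p = 0.1, the smallest possible). The highest of these 10 steps exceeded the lowest 16.9-fold (SD 0.833) in WT-labelled libraries and 10.7-fold (SD 0.406, n = 3 each) in CKO-labelled ones. Levels compared between steps depend on the gene lengths that FPKM divides by and on windows shared with other genes. These sums follow the abundant genes, and FPKM adds transcripts per length, not enzyme activity.

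**Figure D3:**
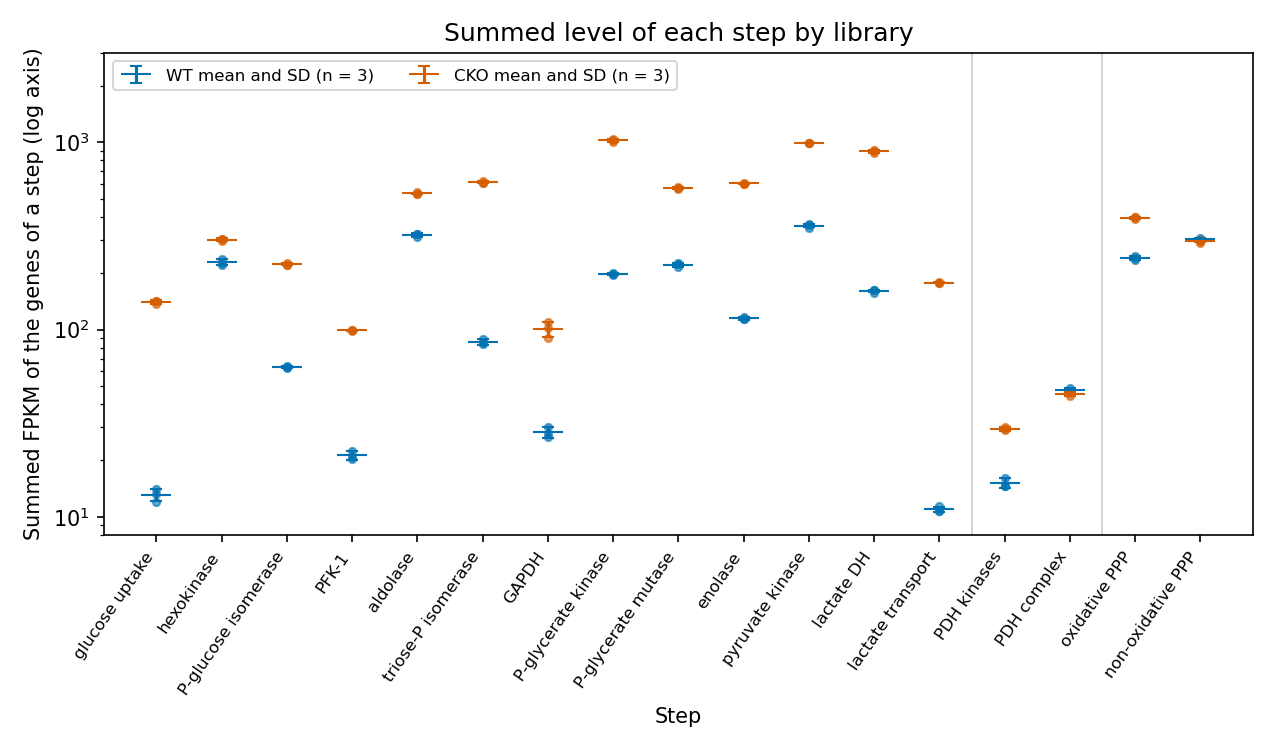
Summed FPKM of the genes of each step (log axis), with the 6 libraries as points and mean and SD (n = 3) for each label; the phosphofructokinase 2 genes, which act on regulation, are not drawn. The labels are farthest apart at lactate transport and glucose uptake, 16.2-fold and 10.7-fold, and overlap at the non-oxidative pentose phosphate arm (PPP).

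Paralog shares were computed for 9 steps whose genes encode alternative forms of 1 protein. All 17 shares tested were without overlap between the groups, in a contrast where the levels of 82.5% of all genes tested were too (exact two-sided permutation p = 0.1 each, the smallest possible, and 0.1 after adjustment over the 17). The shift was 48.9 percentage points for Pfkfb3, 33.1 for Pfkl and 30.4 for Slc2a1, but 1.601 for Aldoa, whose step was already 96.8% Aldoa in WT-labelled libraries. In the pairs Slc2a1 with Slc2a3, Aldoa with Aldoc, Eno1 with Eno2, Ldha with Ldhb and Slc16a3 with Slc16a1, the gene that was more abundant in WT-labelled libraries took a larger share in CKO-labelled ones. Among the steps where 1 gene held most of the summed FPKM in WT-labelled libraries, hexokinase was the exception, since Hk3 lost share. The ratio of Hk3 to Hk2 went from 12.7 ± 0.744 to 4.02 ± 0.224. Pfkp, which led phosphofructokinase 1 in WT-labelled libraries without holding most of the summed FPKM, also lost share, from 40.2% to 24.7%. In recovered reads, not divided by length, Pfkp held 6081 there, against 2760 for Pfkl and 877 for Pfkm. Whether Pfkp held most of that step thus depends on the gene lengths used. A share does not depend on library scaling, so these shifts are the same when a whole library is multiplied by a factor. It does depend on the gene lengths that FPKM divides by.

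**Figure D4:**
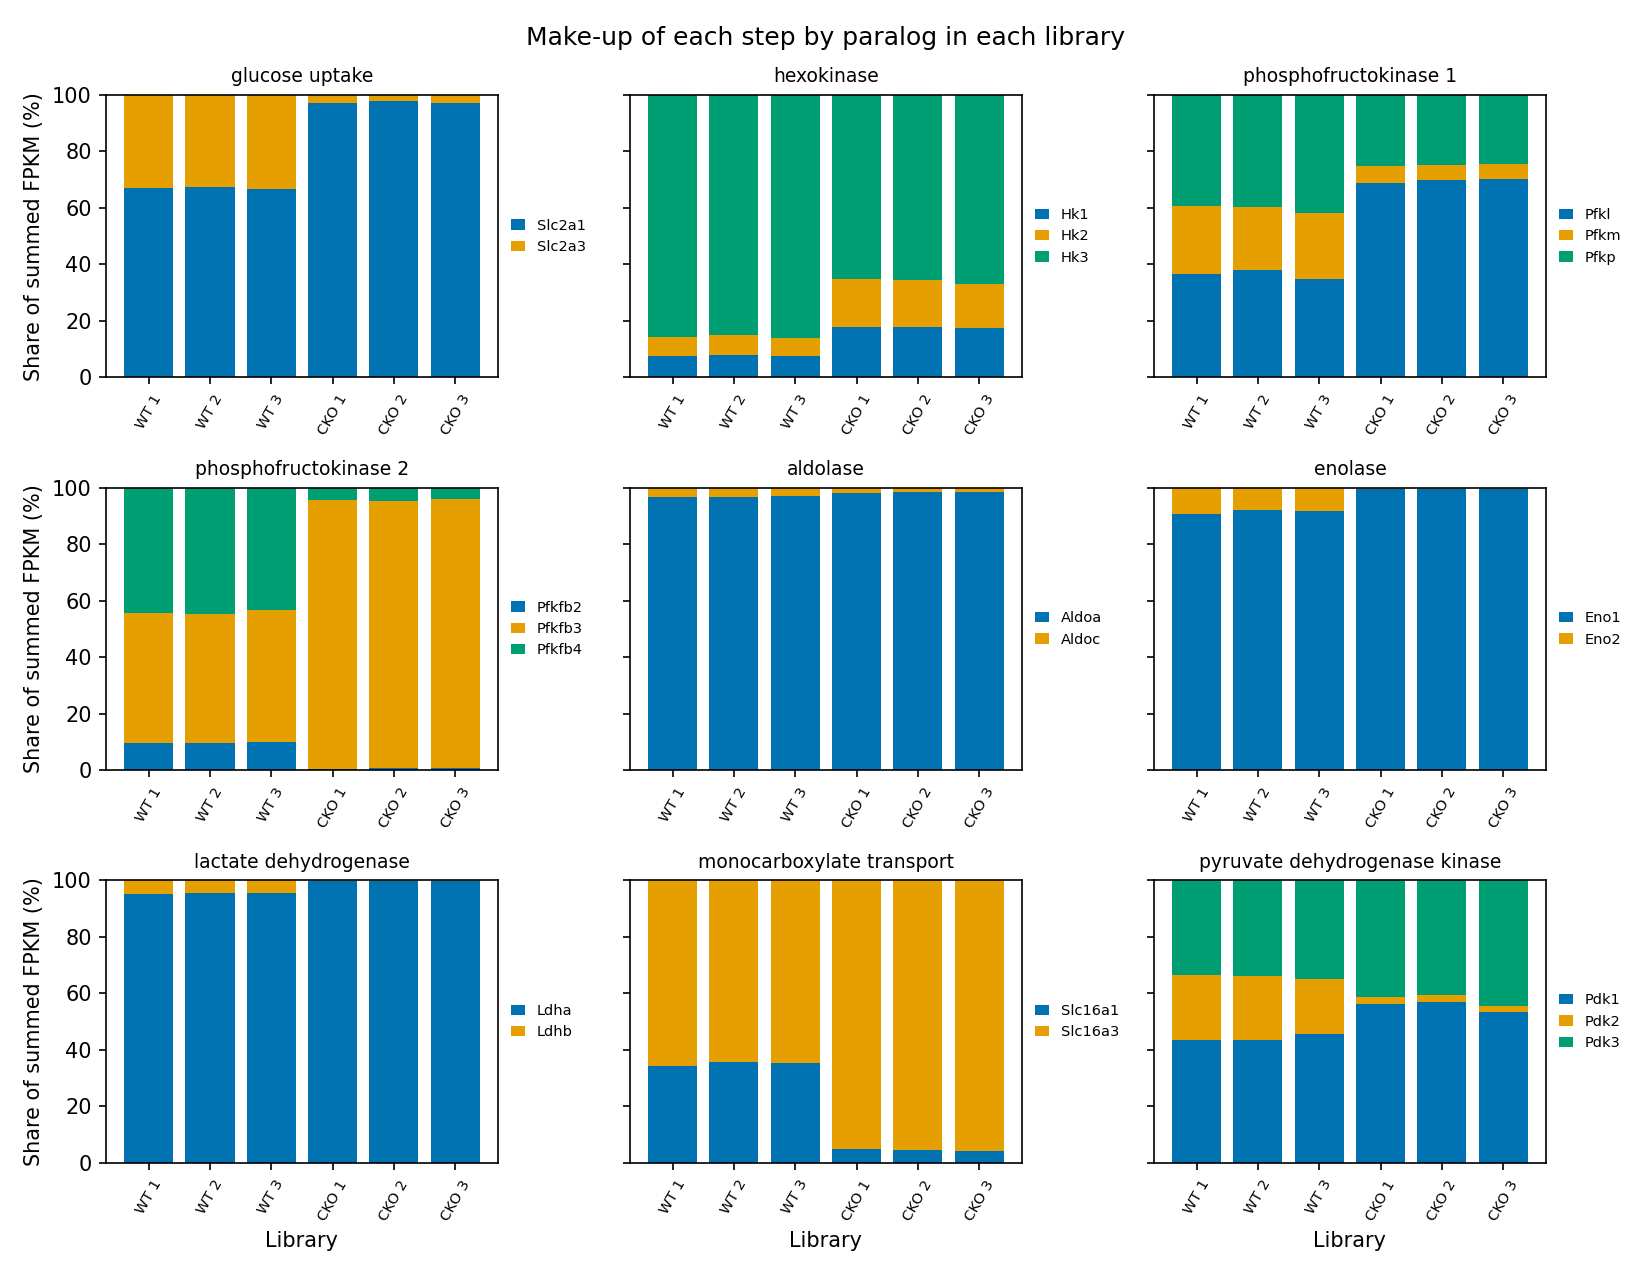
Share of each paralog in the summed FPKM of its step (%, bars) in each library, one panel per step. The 3 bars of each label are nearly alike, and the make-up changes most at phosphofructokinase 2, where Pfkfb3 goes from 46.2% to 95.1%, and least at aldolase.

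The other genes of glucose carbon metabolism did not follow the members as a list. Of 87 further genes (other isoforms, glycogen, pyruvate entry, gluconeogenesis and sugar-nucleotide genes), 56 passed the filter, 17 were higher, 32 lower and 7 not called, with a median log2 difference of -0.21, against 30.5% higher, 50.5% lower and -0.14 over all genes tested. Glycogen synthesis stood out on both sides. Gys1, glycogen synthase, rose from 3.93 ± 0.270 to 48.0 ± 0.774 FPKM (log2 difference 3.31, adjusted p = 1.25e-13, limma). Gbe1, the branching enzyme, rose from 4.79 ± 0.0799 to 31.2 ± 1.58 FPKM (2.47), and Pgm1, which links glycogen to glucose 6-phosphate, from 11.7 ± 0.256 to 80.2 ± 0.532 (2.68). Gyg, glycogenin, the protein primer of the granule, fell from 130 ± 6.41 to 20.8 ± 0.775 FPKM (log2 difference -2.59, adjusted p = 3.68e-13, limma).

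Partners of the members also moved. Bsg, basigin, the chaperone that brings MCT1 and MCT4 to the membrane, rose from 147 ± 1.62 to 362 ± 3.91 FPKM (log2 difference 1.297). Slc2a6, a lysosomal hexose transporter of macrophages, rose from 33.0 ± 1.58 to 120 ± 4.43 FPKM (1.83). Slc16a7, the gene of the high-affinity transporter MCT2, fell from 4.76 ± 0.156 to 0.817 ± 0.105 FPKM (-1.67), and it passed the filter through the libraries labelled WT alone. At the entry of pyruvate, Pcx, pyruvate carboxylase, rose from 1.42 ± 0.0686 to 10.98 ± 0.445 FPKM (2.31). Pdp1 and Pdp2, the phosphatases that reactivate pyruvate dehydrogenase, fell by 1.34 and 1.33 on the log2 scale, to 3.62 ± 0.125 and 1.67 ± 0.290 FPKM. Mpc1, a subunit of the mitochondrial pyruvate carrier, fell from 4.91 ± 1.17 to 2.51 ± 0.184 FPKM (-0.74), while its partner Mpc2 was not called (0.07), though it was called higher after median-of-ratios scaling (0.21) and quantile normalization (0.20). Of the other complex subunits, Pdhx (-0.20) lost its call on rescaling, and without WT replicate 1 or CKO replicate 1, and Dld (-0.11) turned to 0.07 after median-of-ratios scaling. Khk, ketohexokinase, and Slc37a2, a sugar-phosphate exchanger, fell by 1.45 and 1.32.

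Between the 2 oxidative steps, Pgls, the lactonase, fell from 23.8 ± 0.433 to 11.9 ± 0.503 FPKM (-0.95), opposite to G6pdx and Pgd. H6pd, the enzyme that performs the dehydrogenase and lactonase reactions in the endoplasmic reticulum, rose from 14.3 ± 0.674 to 29.9 ± 0.948 FPKM (1.02), and Tigar, a phosphatase that opposes the PFKFB3 product, rose from 4.64 ± 0.462 to 6.24 ± 0.375 (0.36). Pdk4 and Pklr, the fourth kinase and the liver pyruvate kinase, were near 0 in both groups (highest group means 0.0323 and 0.00559 FPKM) and were not tested.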

How the data were processed

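Each library came as its own table, in which the authors deposited FPKM values (the unit is per the file headers) beside the Ensembl identifier, symbol, coordinates and length of 21936 genes. The submitters' processing notes name the build mm10 and the tools Cufflinks, DESeq2 1.22.1, fastp 0.19.3, featureCounts 1.6.2, GATK 4.0.11.0, HISAT2 2.1.0 and StringTie 1.3.4d, giving neither role nor order; how reads that fit several places were counted is not given in the sources used here. Libraries were made with a stranded mRNA kit, per the labels' protocols.

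The deposited FPKM times gene length came out as whole multiples of 1 step in 100% of values (within 0.01 reads), which gave reads per library; these cover counting error only. Genes with at least 1 FPKM in 3 or more of the 6 libraries were tested on log2(FPKM + 1), which understates the change of low genes, with limma 3.58.1 (R 4.3.3) and an intensity trend over the 6 libraries, with Benjamini-Hochberg adjustment over all 9953. Sums, shares and ratios were compared with an exact two-sided permutation test (Python 3.11.15, scipy 1.17.1). Within a group, libraries differed by more than sampling noise. The script was tested on simulated data. Named were all members, the 6 largest changes in each direction among the other glucose genes that were called without overlap, and Pdk4, Pklr, Mpc1, Mpc2, Dld, Pdhx, Pgls, H6pd and Tigar. Members and lists were chosen with earlier results of these data known. Promoter sequences are RefSeq's (GRCm38.p6); exon overlaps and shared 50-base windows come from GENCODE M21, whose coordinates equal the deposited ones for all 38 rows. Alternatives were pseudocounts of 0.1 and 0.5, a replicate block, leaving out single libraries, other filters, 2 rescalings, other variance models, limma voom on the recovered reads and stricter thresholds.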

Additional observations from a re-analysis of the deposited data

How the results depend on the processing

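Of the 32 members called, 29 (22 higher and 7 lower) kept their direction and call in every refit in which they were tested, stricter thresholds aside; the exceptions were Slc2a3, Aldoc and Pdha1. Members called higher numbered between 22 and 27 under all alternatives but the one with a log2 difference of at least 1 (17). Members called lower numbered 7 to 11, except 5 of 32 tested where a mean of at least 5 FPKM was required and 3 with a log2 difference of at least 1. Under those 2 settings the other glucose genes gave 16 lower, and 7 higher and 9 lower, and all genes gave 3185 lower, and 831 higher and 998 lower; fewer genes entered the first, and the second adds a threshold. With each library left out in turn, 22 to 23 members were higher and 9 to 10 lower. limma voom on the recovered reads called 4081 of all genes higher and 3957 lower, and 27 and 7 of the members. The signs of Hk3 (-0.0023 without WT replicate 2, within a range to 0.0575 over the libraries left out, and -0.0043 after quantile normalization), Taldo1 (-0.0071 after quantile normalization) and Pdhb (0.0109 without WT replicate 3, 0.0045 without CKO replicate 1, within a range from -0.0612, 0.1476 after median-of-ratios scaling, 0.1517 with voom) turned, as did that of Dld (0.0715 after median-of-ratios scaling, 0.0703 with voom). After median-of-ratios scaling the log2 ratio of the summed pyruvate dehydrogenase complex became 0.1196 and that of the non-oxidative pentose phosphate arm 0.1546. Same-numbered libraries did not deviate together (correlations 0.019, 0.012 and -0.039), so the numbers are not taken as pairs; with a replicate block, 23 members were higher and 10 lower, Pfkm being the one added, and 3018 of all genes were higher and 5023 lower. All 17 paralog shares stayed free of overlap with each library left out, and 17 to 18 of the 18 step sums did, with 18 after median-of-ratios scaling. Depth limits Ldhb, Pdk2 and Pfkfb2, whose lowest libraries held 40, 37 and 82 reads.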
